A study of Mus musculus with 22 samples.

Results

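The genes described are 10 mouse genes of iron and heme handling: Hmox1, Blvrb, Slc40a1, Fth1, Ftl1, Tfrc, Slc11a1, Slc11a2, Cd163 and Hp. They were taken as a fixed list of names, which was chosen with earlier results of these data known. Matched through their Ensembl identifiers, all 10 were present in both count tables, which shared 31116 genes. Messenger RNA was sequenced from lung cells sorted as Ly6Chi monocytes (CD11b+, 12 samples) and as SigF+CD11b- alveolar macrophages (10 samples). Every mouse was C57BL/6 and carried SP-CI73T, a mutant form of surfactant protein C, which alveolar type 2 epithelial cells make and the sorted cells do not. A single oral dose of tamoxifen activates an estrogen receptor controlled Flp-O recombinase, knocked into the Rosa26 locus, which removes a neomycin cassette and raises the mutant protein. Samples came from control mice (4 monocyte and 4 macrophage samples), from mice 3 d after tamoxifen, when the lung injury starts (4 and 3), and from mice 14 d after it, at its peak (4 and 3). Controls carried the mutant allele too, at the lower level that the cassette allows. The labels call them untreated, the study's methods describe a mix of oil treated mice with Flp-O and tamoxifen treated mice without it, and its results describe oil treated mice. Mice were adults and both sexes were used. Lungs were lavaged, perfused and digested with collagenase, and red cells were lysed before sorting.

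Macrophages take up iron as transferrin-bound iron through the transferrin receptor, as hemoglobin bound to haptoglobin through CD163, and as heme inside engulfed red cells. Heme is opened by heme oxygenase, which frees iron, and biliverdin reductases turn the biliverdin it leaves into bilirubin. Freed iron is stored in ferritin, a shell of heavy (Fth1) and light (Ftl1) chains, leaves the cell through ferroportin (Slc40a1), or crosses endosomal and phagosomal membranes through the divalent metal transporters DMT1 (Slc11a2) and NRAMP1 (Slc11a1). In the lung, alveolar macrophages are known for handling iron from inhaled particles and from bleeding into the airspace.

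A shared control of several of these genes lies in their transcripts. An iron-responsive element is a hairpin that the iron regulatory proteins IRP1 and IRP2 bind when iron is low: in a 5′ UTR this holds back translation, and in a 3′ UTR it protects the transcript from decay. The transcripts of the 10 genes (GENCODE M21, GRCm38) were searched, on the transcript strand, for a bulged C, the stem NNNNN, the loop CAGTGN and the stem NNNNN in that order, with all 5 bases of the stems paired (G with T allowed). The letters were found in the 5′ UTR of Fth1, Ftl1 and Slc40a1 and, at 4 places, in the 3′ UTR of Tfrc. Of 21901 protein coding genes searched in the same way, 0.137% held the pattern in a 5′ UTR and 0.584% in a 3′ UTR. The sites are shown because the storage and export genes carry theirs at the end of the transcript opposite to the uptake gene. Each runs 5′ to 3′ in the sense of its transcript, in DNA letters, with the loop in capitals.
Fth1, chr19:9982732-9982760, plus strand, 5′ UTR: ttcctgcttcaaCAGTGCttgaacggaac
Ftl1, chr7:45459779-45459807, minus strand, 5′ UTR: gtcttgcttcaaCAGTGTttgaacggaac
Slc40a1, chr1:45925465-45925493, minus strand, 5′ UTR: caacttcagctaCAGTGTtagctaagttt
Tfrc, chr16:32631219-32631247, plus strand, 3′ UTR: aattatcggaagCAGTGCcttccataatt
Tfrc, chr16:32631598-32631626, plus strand, 3′ UTR: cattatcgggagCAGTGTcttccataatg
Tfrc, chr16:32631663-32631691, plus strand, 3′ UTR: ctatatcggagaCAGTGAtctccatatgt
Tfrc, chr16:32631710-32631738, plus strand, 3′ UTR: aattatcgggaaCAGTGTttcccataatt

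The other 6 genes did not hold these letters in a UTR, which says nothing of other forms of the element. A match is a description of the sequence, and the libraries measured transcript levels, not translation.

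Levels are given as CPM, the counts of a gene over those of its library on a fixed scale, with library totals adjusted by TMM, a trimmed mean of ratios between libraries. A gene was called changed at a Benjamini-Hochberg adjusted p under 0.05 over all genes tested and a fold change above 1.5, with edgeR's quasi-likelihood test. Library totals were 15451460 to 28789639 counts for monocytes and 4610720 to 17074863 for macrophages, lowest in the macrophages of 14 d, where a floor of 3 counts stood at 0.439 to 0.651 CPM. Control and 3 d libraries had female levels of X- and Y-linked transcripts (Xist at 552 to 4444 counts) and those of 14 d had male ones (Xist at 1 to 32), so that sex and the 14 d time point cannot be told apart. Monocytes of 3 d had counts for 40119 to 41134 genes against 24775 to 30865 in control monocytes. Macrophages of 14 d, despite their low totals, had counts for 27699 to 30627 genes. Control macrophages had 21951 to 27616 and those of 3 d 21499 to 26335. The labels were borne out by Ly6c2, at 1314.3 to 3459.4 CPM in monocytes and 1.183 to 6.194 in macrophages, and by Siglecf, at 90.11 to 347.7 CPM in macrophages and 0.7999 to 29.19 in monocytes. In these bulk samples, fewer cells of a type and less RNA per cell cannot be told apart. Nothing says that samples of a group came from separate mice, so p-values measure the spread between these samples.

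In Ly6Chi monocytes, against control, 6 of the 10 genes were called lower at 3 d (Hmox1, Blvrb, Fth1, Slc11a1, Slc11a2 and Cd163) and none higher, where 14.4% of all genes tested were called lower and 36.8% higher. The median log2 change was -0.68 for the 10 genes and 0.22 for all genes tested. That background differed with the filter on low counts: among 12055 genes with a mean log2 CPM above 1 the median was -0.04, with 1645 called higher and 683 lower, and of the 10 genes Hmox1 and Slc11a1 were called, both lower. At 14 d Hmox1 was called higher and Slc11a1 lower, where 8.56% of all genes tested were called, 3.22% higher and 5.34% lower. From 3 d to 14 d 6 of the 10 genes rose (Hmox1, Blvrb, Fth1, Ftl1, Slc11a2 and Cd163) and none fell, where 46.5% of all genes tested were called, 12% higher and 34.5% lower. The groups did not overlap in 4 of the 10 genes at 3 d, 3 at 14 d and 6 from 3 d to 14 d, against 51.2, 13.7 and 51.4% of all genes tested. The comparisons share their samples. With DESeq2 size factors 3 of the 10 were called lower at 3 d, and under library size, upper quartile and high gene scaling only Slc11a1 was lower while Tfrc was called higher, as was Hp under library size and high gene scaling. Of all 22353 genes tested, 2059 were called lower with DESeq2 size factors. Library size, upper quartile and high gene scaling called 499, 681 and 439 lower and 9743, 9276 and 9871 higher. Without replicate 1 of 3 d the 6 calls became 3, with Blvrb, Slc11a2 and Cd163 lost.

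In alveolar macrophages none of the 10 genes was called by edgeR at 3 d, when 1.27% of all genes tested were called, 1.05% higher. At an unadjusted p under 0.05 edgeR gave 2 of them, Slc11a1 and Hp, but the share of all genes at that limit was not taken. DESeq2 called 1, Hp, where it called 763 of all 20936 genes tested. At 14 d 4 of the 10 were called higher (Hmox1, Slc40a1, Slc11a1 and Hp) and none lower, where 62.3% of all genes tested were called, 39.4% higher and 22.9% lower. The share of the 10 called higher was near that background, and their share called in either direction was below it. That background differed with the filter: among 13740 genes with a mean log2 CPM above 1, 3424 were called higher and 2328 lower, smaller shares of the genes tested. Against 3 d the same 4 names were called higher at 14 d and Slc11a2 lower, where 56.4% of all genes tested were called, 36.3% higher and 20% lower. The groups did not overlap in 2 of the 10 genes at 3 d, 6 at 14 d and 5 from 3 d to 14 d, against 14, 70.8 and 65.5% of all genes tested.

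**Figure D1:**
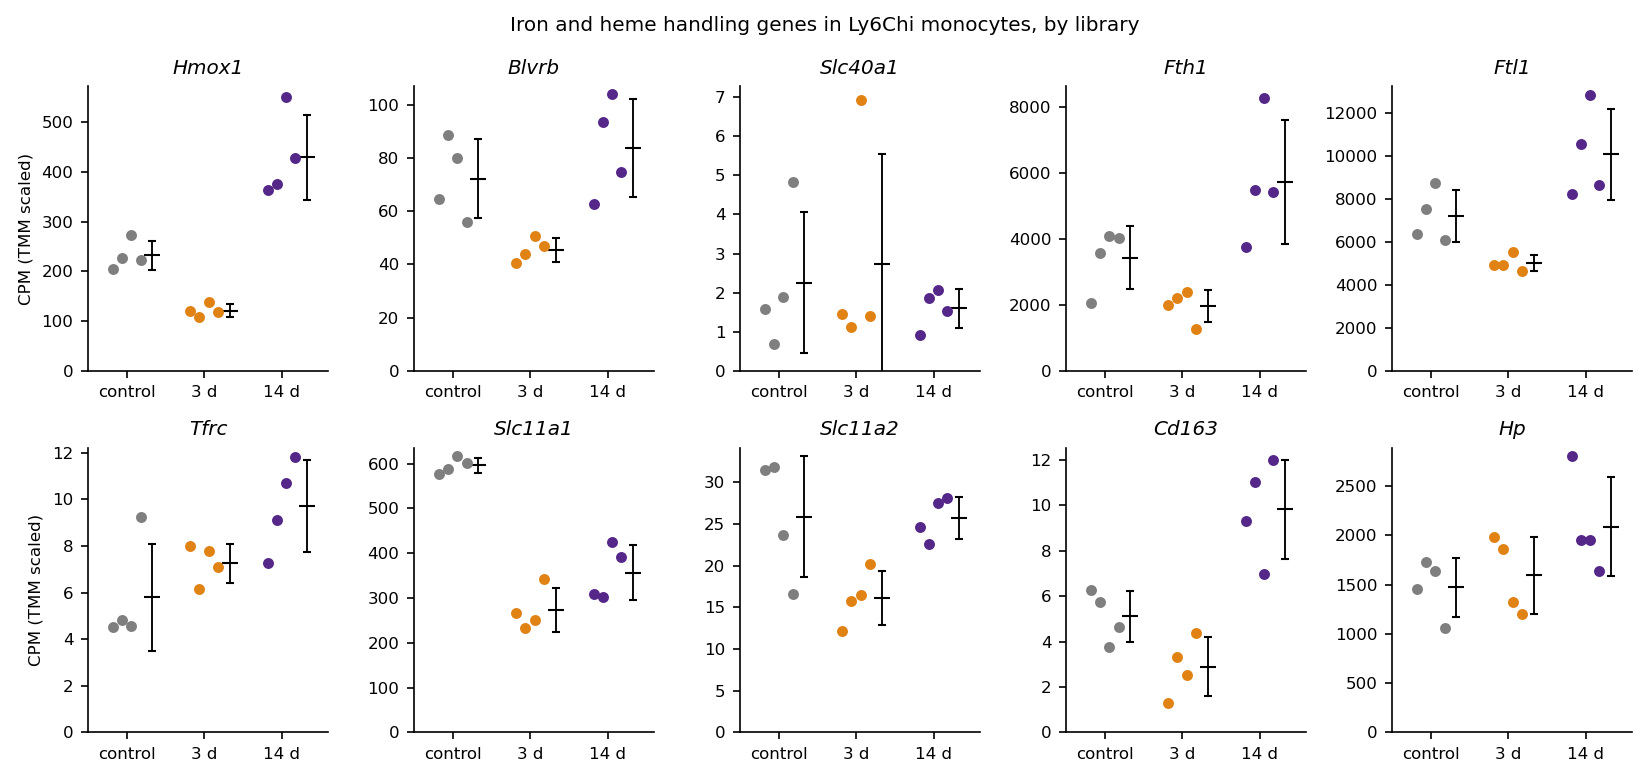
Levels of the 10 genes in Ly6Chi monocytes, in TMM scaled CPM on a linear axis from 0, 1 point per library, with group means and SD (n = 4 per group). Hmox1 lies at 107.5 to 137.7 CPM at 3 d and at 363.8 to 550.2 at 14 d, on opposite sides of control, and Slc11a1 lies below control at both times.

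**Figure D2:**
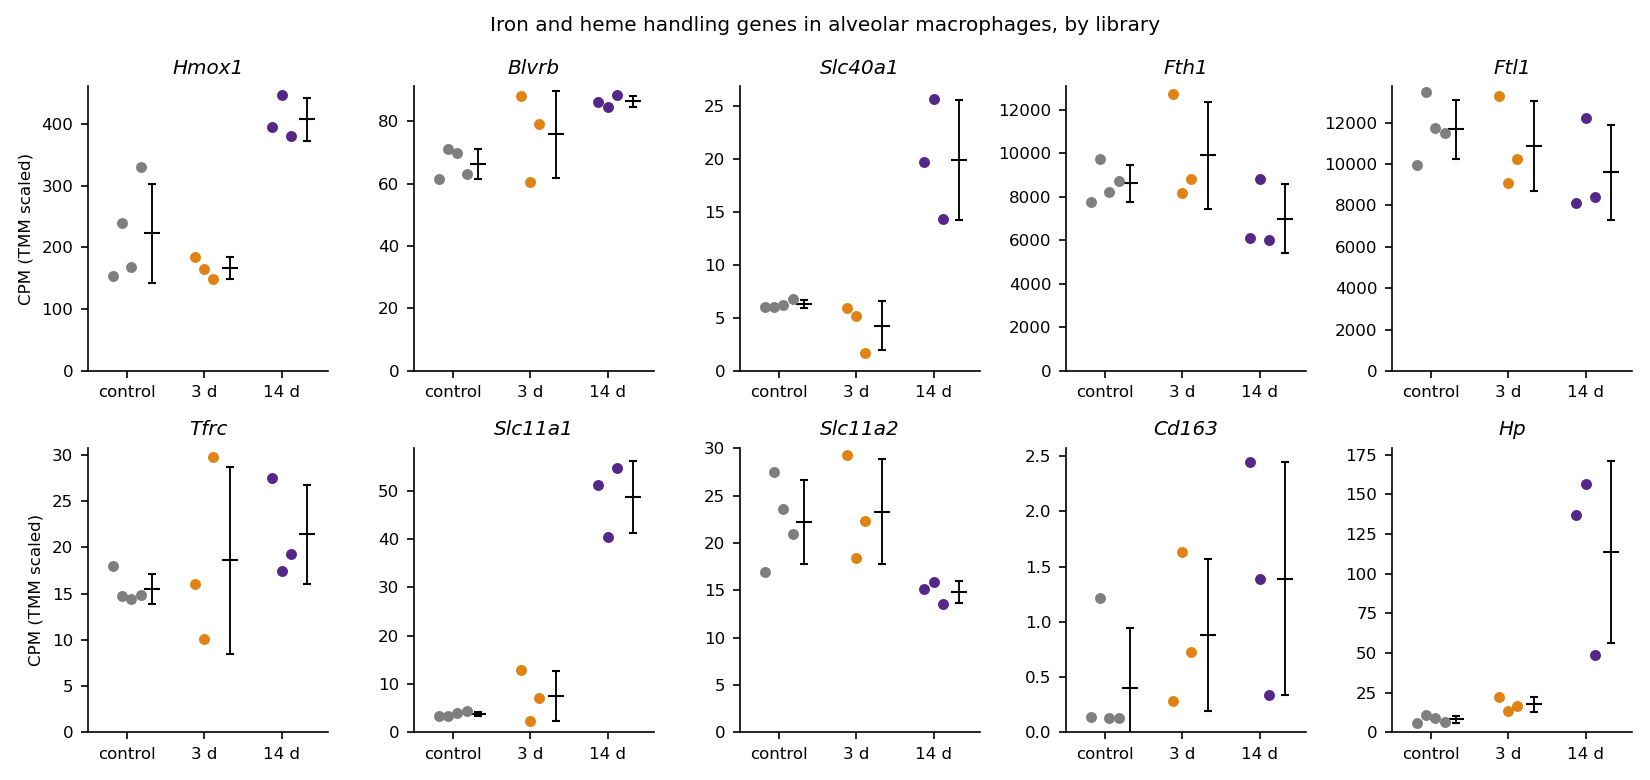
Levels of the same genes in alveolar macrophages, in TMM scaled CPM on a linear axis from 0, 1 point per library, with group means and SD (n = 4, 3 and 3), SD bars ending at 0. All libraries of 14 d lie above all control and 3 d libraries for Hmox1, Slc40a1, Slc11a1 and Hp.

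Hmox1 encodes the inducible heme oxygenase, the enzyme that opens heme and frees its iron (GRCm38 chr8:75093621-75100589, plus strand). In monocytes its level was 204.9, 226.2, 273.9 and 223.6 CPM in the control libraries, 120.8, 107.5, 137.7 and 118.5 at 3 d and 363.8, 375.7, 550.2 and 426.9 at 14 d. The 3 groups did not overlap, with 3 d lowest and 14 d highest. Hmox1 fell to 0.52-fold of control at 3 d (log2 change -0.94 ± 0.15 SE, edgeR adjusted p = 0.000723) and rose 1.85-fold at 14 d (0.89 ± 0.15, adjusted p = 0.00186). From 3 d to 14 d its level rose 3.54-fold (log2 change 1.82 ± 0.16, adjusted p = 2.08e-05), where no alternative setting and no library left out ended the call. The fall at 3 d came to -0.42 to -0.54 under 3 other scalings, under the fold limit, with an adjusted p of at most 0.0316.

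In macrophages Hmox1 was at 153, 239.6, 168.1 and 329.7 CPM in control libraries, at 185, 165.3 and 148.9 at 3 d and at 394.2, 446 and 380.9 at 14 d. The controls spread widely, 3 d fell at their low end and 14 d lay above all of them. The rise at 14 d was 1.83-fold (log2 change 0.87 ± 0.21, edgeR adjusted p = 0.00204), close in size to that of monocytes. The change at 14 d in macrophages minus that in monocytes was -0.36 on the log2 scale, with a 95% interval from -0.93 to 0.21, and its sign turned under the other scalings (up to 0.51).

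Blvrb encodes biliverdin reductase B, which acts after heme oxygenase. Monocytes had 64.43, 88.8, 79.85 and 56.15 CPM in control, 40.38, 43.91, 50.58 and 47.01 at 3 d and 62.84, 93.39, 103.9 and 74.7 at 14 d. Every 3 d library lay below every other monocyte library, while control and 14 d overlapped. The fall at 3 d was to 0.63-fold (log2 change -0.67 ± 0.19, edgeR adjusted p = 0.00836) and was no longer called in 6 of 10 alternatives, 4 other scalings among them, or without replicate 1 of 3 d. In macrophages Blvrb was at 61.42 to 71.01 CPM in control, 60.61 to 88 at 3 d and 84.56 to 88.25 at 14 d. Libraries of 14 d lay above all controls, but the difference of 1.30-fold was under the fold limit (adjusted p = 0.0229).

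Fth1 and Ftl1 encode the ferritin chains, and Ftl1 had the most transcript per length of the list. Per kilobase of exon, on a scale set over the 22 libraries, Ftl1 had group means of 4702.5 to 8746.5 CPM and Fth1 of 712.8 to 2460.3. Hp in monocytes, at 1031.7 to 1517.4, lay within the range of Fth1, while Slc40a1, Tfrc and Cd163 stayed under 3 in every group. Ftl1 shares 109 exonic bases with a microRNA gene on its own strand, Gm22133, and 355 with Gm10252 on the other strand. A near copy, Ftl1-ps1, held counts equal to 1.24 to 1.89% of those of Ftl1 in monocytes and 0.213 to 0.313% in macrophages. How far reads that fit more than 1 of these genes changed the level of Ftl1 was not measured.

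In monocytes Fth1 was at 2056.6, 3585.8, 4077 and 4025.1 CPM in control, 2011.1, 2209.7, 2388.3 and 1269.1 at 3 d and 3752.3, 5471.9, 8284.7 and 5408.3 at 14 d. Replicate 1 of control was as low as the 3 d libraries, and every 14 d library lay above every 3 d library. Fth1 fell to 0.57-fold at 3 d (log2 change -0.80 ± 0.26, edgeR adjusted p = 0.0186) and rose 2.91-fold from 3 d to 14 d (1.54 ± 0.27, adjusted p = 0.00129). The fall at 3 d was not called in 4 of 10 alternatives, 3 other scalings and the filter at a log2 CPM of 1, and the rise to 14 d was called under every alternative. The 14 d level against control differed by 0.74 ± 0.26 and did not pass (adjusted p = 0.103).

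Ftl1 in monocytes was at 6390.2, 7546.4, 8745 and 6077.3 CPM in control, 4937.2, 4928.7, 5541.7 and 4646.4 at 3 d and 8236.8, 10566.9, 12843.8 and 8647.5 at 14 d. All 3 d libraries were below all others, and 14 d overlapped with control. From 3 d to 14 d Ftl1 rose 2.01-fold (log2 change 1.01 ± 0.16, edgeR adjusted p = 0.000859), and at 0.54 it missed the fold limit when TMM factors came from high genes. Its difference at 3 d from control, -0.52 ± 0.16, was under the fold limit and went to 0.0033 with those factors.

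In macrophages the ferritin chains did not pass at any time against control. Fth1 was at 7772.9 to 9745 CPM in control, 8171.5 to 12725.7 at 3 d and 6021.2 to 8840.2 at 14 d. Ftl1 was at 9940.8 to 13456.8, 9092.6 to 13293.5 and 8118.7 to 12227.2. The log2 differences at 14 d were -0.30 ± 0.19 for Fth1 and -0.28 ± 0.18 for Ftl1, with signs that turned under library size, upper quartile and high gene scaling. The changes at 14 d differed between the cell types: macrophages minus monocytes gave -1.38 ± 0.34 for Fth1 (edgeR adjusted p = 0.00385) and -1.12 ± 0.23 for Ftl1 (adjusted p = 0.00078). Both lost the call under those scalings and when genes needed a mean log2 CPM above 1, while the sign was kept.

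Slc40a1, ferroportin, exports iron from the cell and is its known iron exporter (chr1:45908068-45926523, minus strand). Macrophages had 6.025, 6.082, 6.226 and 6.838 CPM in control, 5.948, 5.199 and 1.668 at 3 d and 19.73, 25.71 and 14.37 at 14 d, the latter from 137, 204 and 85 counts. All 14 d libraries were above all others, and all 3 d libraries below control. The rise at 14 d was 3.17-fold against control (log2 change 1.67 ± 0.31, edgeR adjusted p = 0.000278) and 4.59-fold against 3 d (2.20 ± 0.35, adjusted p = 0.000177). Neither call was lost under any alternative or with any library left out. The lower values of 3 d did not pass (-0.53 ± 0.32, adjusted p = 0.49).

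In monocytes Slc40a1 was low, at 0.6992 to 4.842 CPM in control, 1.123 to 6.934 at 3 d and 0.9275 to 2.075 at 14 d, with 13 to 129 counts per library, and the groups overlapped. Replicate 3 of 3 d, at 6.934 CPM, stood apart from the rest of its group. The change at 14 d in macrophages minus that in monocytes was 1.83 ± 0.78 on the log2 scale, which did not pass (adjusted p = 0.067) but did in 7 of 10 alternative settings.

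Tfrc, the transferrin receptor, brings in transferrin-bound iron, and its transcript carries the row of 3′ hairpins shown above. Monocytes had 4.516, 4.841, 4.584 and 9.236 CPM in control, 6.152 to 8.004 at 3 d and 7.281 to 11.81 at 14 d. Replicate 4 of control stood above the rest of its group and made it overlap with the others. Neither difference passed: 0.32 ± 0.26 at 3 d (edgeR adjusted p = 0.307) and 0.75 ± 0.26 at 14 d (adjusted p = 0.101). At 3 d Tfrc was called higher under library size, upper quartile and high gene scaling, and without replicate 4 of control it was called higher at 3 d (0.67, edgeR adjusted p = 0.0299) and at 14 d (1.06, adjusted p = 0.0132). Macrophages had 14.42 to 17.94 CPM in control, 10.09 to 29.72 at 3 d and 17.39 to 27.51 at 14 d, with no call at either time (adjusted p = 0.736 and 0.155).

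Slc11a2 encodes DMT1, which moves ferrous iron out of endosomes. In monocytes it was at 31.49, 31.84, 23.64 and 16.6 CPM in control, 12.19, 15.76, 16.45 and 20.19 at 3 d and 24.63, 22.63, 27.51 and 28.14 at 14 d. The 3 d libraries overlapped with replicate 4 of control alone and lay below all of 14 d. The fall at 3 d was to 0.62-fold (log2 change -0.68 ± 0.22, edgeR adjusted p = 0.0167), a call lost in 7 of 10 alternatives. In macrophages the level was 16.91, 27.52, 23.59 and 20.98 CPM in control, 29.31, 18.39 and 22.31 at 3 d and 15.12, 15.88 and 13.53 at 14 d. With TMM the 14 d libraries were below all others. They stood at 0.67-fold of control, under the fold limit (edgeR adjusted p = 0.0187), a log2 change that ran from -0.78 to -0.01 over the alternatives. Against 3 d they stood at 0.64-fold, which passed the limit (adjusted p = 0.0161), a call lost in 7 alternatives. With library totals alone 14 d had 18.69, 18.42 and 17.35 CPM and control 15.86 to 25.07, which overlapped. Slc11a2 shares 402 exonic bases with Gm5475 on the other strand.

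Slc11a1, or NRAMP1, pumps divalent metals out of the phagosome and is known for its part in resistance to bacteria that live inside macrophages (chr1:74375195-74386062, plus strand). Monocytes had 577.2, 588.8, 616.2 and 601.8 CPM in control, 265.5, 233.8, 250.9 and 342.7 at 3 d and 308.6, 302, 423.9 and 392.2 at 14 d. Control libraries lay close together and above every library after tamoxifen, whose 2 groups overlapped. Slc11a1 fell to 0.46-fold at 3 d (log2 change -1.13 ± 0.15, edgeR adjusted p = 0.000345) and to 0.60-fold at 14 d (-0.74 ± 0.15, adjusted p = 0.00541), called under every alternative and with every library left out.

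In macrophages the level of Slc11a1 was 3.355, 3.497, 3.932 and 4.382 CPM in control, 12.83, 2.406 and 7.195 at 3 d and 51.13, 40.45 and 54.78 at 14 d. At 3 d the libraries lay on both sides of control, with replicate 2 below it, and at 14 d all were far above. The rise at 14 d was 12.8-fold (log2 change 3.68 ± 0.39, adjusted p = 1.04e-05). At 3 d the difference of 0.98 ± 0.39 did not pass (adjusted p = 0.277), and without replicate 2 it was 1.45 (adjusted p = 0.00101). Even at 14 d, on the scale set over all libraries, the macrophage mean of 34.88 CPM lay below the 344 CPM of monocytes at 3 d, the lowest monocyte group. The change in macrophages minus that in monocytes was 1.93 ± 0.41 at 3 d (adjusted p = 0.00436) and 4.08 ± 0.41 at 14 d (adjusted p = 5.19e-07).

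Cd163 is the scavenger receptor that takes up hemoglobin bound to haptoglobin, and Hp encodes haptoglobin, a plasma protein made by liver and stored in neutrophil granules. In monocytes Cd163 was at 6.257, 5.755, 3.78 and 4.638 CPM in control, 1.3, 3.323, 2.526 and 4.376 at 3 d and 9.322, 11, 6.971 and 11.97 at 14 d. Control and 3 d overlapped, and every 14 d library lay above every other monocyte library. Cd163 rose 3.41-fold from 3 d to 14 d (log2 change 1.77 ± 0.34, edgeR adjusted p = 0.00187) under every alternative. Its fall at 3 d (-0.83 ± 0.33, adjusted p = 0.0464) was lost in 7 alternatives and with 6 of the 8 libraries left out in turn, and the 14 d difference from control (0.94 ± 0.33) was not called. Markers of tissue macrophages summed to 742.3 to 1771.9 CPM in 14 d monocytes against 63.93 to 172.2 in control, with 5 of 8 called higher and 1 lower, and their part in the result was not tested.

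In macrophages Cd163 had 2 to 16 counts per control library, 4 to 21 at 3 d and 2 to 17 at 14 d. At 0.1311 to 2.449 CPM these levels reach down to the floor, 3 of 4 controls had 2 counts each, and no time point passed. Control macrophages were called lower than control monocytes (log2 difference -4.06 ± 0.61, adjusted p = 3.56e-06), a size that depends on the few counts.

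Hp in monocytes was at 1459.3, 1729.2, 1643.2 and 1059.1 CPM in control, 1984.8, 1860.6, 1325.2 and 1201.4 at 3 d and 2804.4, 1956.4, 1956.6 and 1637.3 at 14 d. The groups overlapped, and neither the difference at 3 d (0.11 ± 0.21) nor that at 14 d (0.50 ± 0.21, edgeR adjusted p = 0.166) passed. At 3 d Hp was called higher under library size (0.61) and high gene scaling (0.63). In macrophages Hp was at 6.162, 11.1, 9.372 and 6.838 CPM in control, 22.5, 13.58 and 16.79 at 3 d and 136.8, 156.4 and 48.69 at 14 d. The macrophage groups stood in that order without overlap. The rise at 14 d was 13.7-fold (log2 change 3.77 ± 0.38, adjusted p = 1.99e-05), and the 3 d difference of 1.08 ± 0.38 did not pass (adjusted p = 0.217). The change at 14 d was larger in macrophages than in monocytes by 2.91 ± 0.42 (adjusted p = 2.8e-05).

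Markers of other cells moved with these rises in 14 d macrophages. The sum of 10 neutrophil markers was 1243.2, 1529 and 386 CPM in the 3 libraries, in the same order as Hp, against 69.02 to 213.9 in control, and 6 of the 7 tested were called higher and 1 lower. S100a8 was at 104.7 to 662.8 CPM and S100a9 at 104 to 706, while Ly6g was at most 1.296 and Camp at most 1.44. Monocyte markers summed to 159.5 to 305.9 CPM against 31.67 to 59.57 in control, with 5 of 8 called higher, and to 7276.1 to 10100.1 in 14 d monocytes, while Ly6c2 itself was at 1.183 to 6.194 CPM in 14 d macrophages. Hepatocyte markers summed to 57.31 to 118.7 CPM against 20.91 to 29.31, with 4 of 4 called higher. Of 10 alveolar macrophage markers 7 were called lower, and their sum was 22721.4 to 28780.6 CPM against 28320 to 33192. Of 8 tissue macrophage markers 6 were called higher and 1 lower, while their sum was lower, at 851.4 to 975.7 CPM against 1449.2 to 1857.4 in control. The part of these markers in the rises of Slc11a1, Hp, Slc40a1 and Hmox1 was not tested.

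In monocytes, erythroid markers summed to 213.8 to 4338 CPM in control, 15.48 to 377.1 at 3 d and 3.668 to 98.13 at 14 d, although red cells had been lysed. Of 8 tested, 5 were called lower and 1 higher at 3 d, and 3 were called lower at 14 d. Lymphocyte markers were called lower in 5 of 6 cases at 3 d and 4 of 6 at 14 d, and 6 of 10 alveolar macrophage markers were lower at 3 d. The alveolar macrophage markers summed to 8504.6 to 15466.3 CPM in control, 4428.3 to 9110.5 at 3 d and 15834.8 to 21325.4 at 14 d, above all controls. Of the 10, 1 was called higher and 1 lower at 14 d against control. From 3 d to 14 d 4 of 10 were called higher, while Siglecf was at 2.133 to 5.029 CPM at 14 d. Neutrophil markers summed to 203.5 to 298.2 CPM in control, 230.5 to 1398.8 at 3 d and 700.8 to 1537.7 at 14 d. Their part in the monocyte changes of the 10 genes was not tested.

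**Figure D3:**
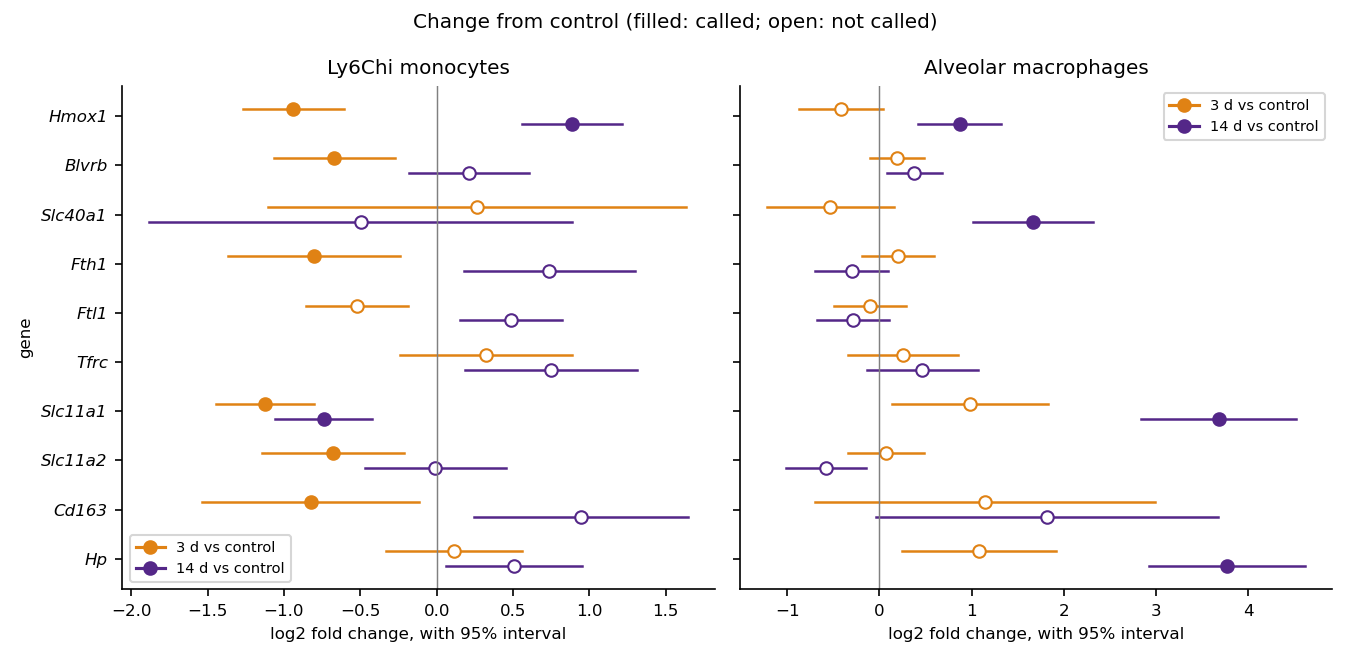
Log2 fold changes against control with 95% intervals for both cell types at 3 d and 14 d (left, monocytes; right, macrophages; the 2 horizontal axes differ), filled where the gene was called. In monocytes 6 genes lie left of 0 and are filled at 3 d, and in macrophages Slc11a1 and Hp lie above 3 at 14 d.

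In control samples the cell types differed in 5 of the 10 genes, 2 higher in macrophages and 3 lower, where 44.3% of all genes tested were called, 24.6% higher and 19.7% lower. The groups did not overlap in 6 of the 10, against 43.8% of all genes tested. Control macrophages had more Fth1 (1.94-fold, log2 difference 0.95 ± 0.23, edgeR adjusted p = 0.00154) and more Tfrc (2.06-fold, 1.04 ± 0.28, adjusted p = 0.00356) than control monocytes. They had less Slc11a1 (log2 difference -7.66 ± 0.36), less Hp (-7.83 ± 0.37) and less Cd163. Hmox1 did not pass, at -0.43 ± 0.19 (adjusted p = 0.0637), nor did Slc40a1, at 1.09 ± 0.53 (adjusted p = 0.0971). Without replicate 4 of control monocytes Blvrb, Slc40a1 and Slc11a2 were called too, which made 8.

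Ordered by group mean over the 6 groups, on the scale set over all libraries, the genes fell into different orders. Hmox1 was highest in 14 d monocytes, at 499.5 CPM, above 14 d macrophages, at 289.6, with no overlap, and each later neighbour in the order overlapped the one before it, down to 3 d macrophages at 143.3. Slc40a1 was highest in 14 d macrophages, at 14.12 CPM, above control macrophages, at 5.5, and the other neighbours overlapped. Hp ran from 2436.9 CPM in 14 d monocytes to 1656.9 in control monocytes with overlap, then to 80.45, 15.2 and 7.294 in 14 d, 3 d and control macrophages without it. Slc11a1 ran from 672 CPM in control monocytes to 415.3 (14 d) and 344 (3 d), which overlapped, and then to 34.88, 6.469 and 3.319 in 14 d, 3 d and control macrophages. For Blvrb, Fth1, Ftl1 and Tfrc every neighbour in the order overlapped the next. Slc11a2 was lowest in 14 d macrophages, at 10.56 CPM, apart from the rest, and Cd163 highest in 14 d monocytes, at 11.43 CPM, apart from the rest.

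**Figure D4:**
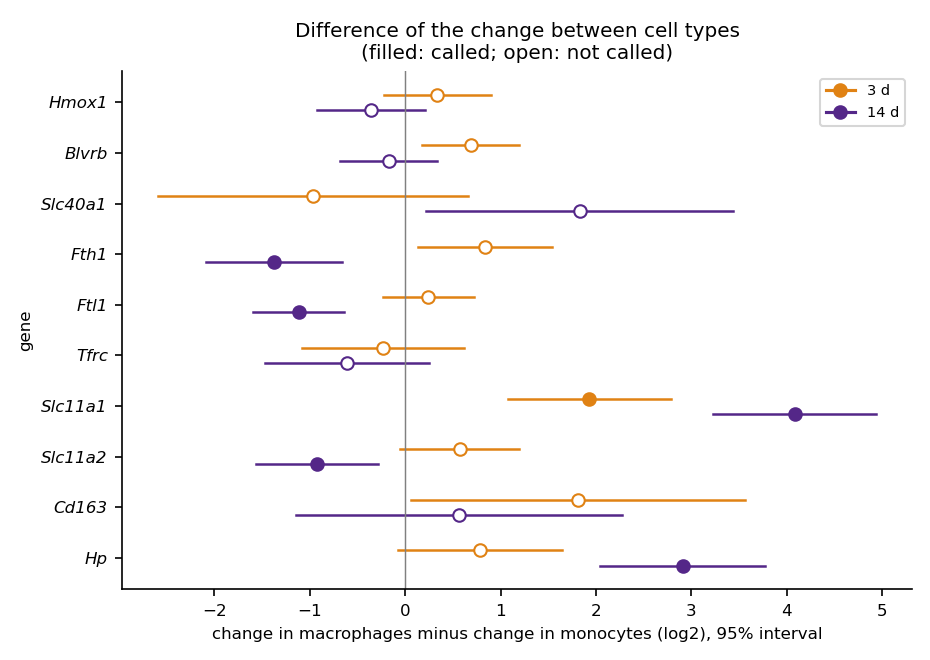
Change from control in macrophages minus change in monocytes for the 10 genes, log2 with 95% intervals, at 3 d and 14 d, filled where called. At 14 d Slc11a1 and Hp lie right of 0 and Fth1, Ftl1 and Slc11a2 left of it.

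Of the 10 genes, 1 differed between cell types in its change at 3 d, Slc11a1, where 18.7% of all genes tested were called, 3.51% in its direction. At 14 d 5 differed, where 36.9% were called, 16.9% upward and 20% downward. Macrophages minus monocytes was positive for Slc11a1 and Hp, and negative for Fth1, Ftl1 and Slc11a2 (-0.92 ± 0.31, edgeR adjusted p = 0.0233). Slc11a2 did not rise in monocytes at 14 d (log2 change -0.01, edgeR adjusted p = 0.986) and stood at -0.58 in macrophages, under the fold limit. The call for the Slc11a2 difference was lost in 7 alternatives. With 1 library left out the number at 3 d was 1 to 3 and that at 14 d 4 to 6.

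Around the 10 genes, 53 other genes of heme synthesis, heme transport, iron uptake, storage, regulation and iron-sulfur cluster assembly were followed. In monocytes 7 were called higher and 14 lower of 48 tested at 3 d, and 4 higher and 4 lower at 14 d. Of all genes tested, 36.8% were called higher and 14.4% lower at 3 d, and 3.22% and 5.34% at 14 d. Under library size, upper quartile and high gene scaling the split of these 48 genes at 3 d became 10 higher and 2 lower. Of all 22353 genes tested, 9743, 9276 and 9871 were then called higher and 499, 681 and 439 lower. At 3 d Trf, the iron carrier transferrin, fell (log2 change -1.71 ± 0.36, edgeR adjusted p = 0.00256), as did Hfe, a partner of the transferrin receptor (-1.15 ± 0.17, adjusted p = 0.000464). Nfe2l2, or NRF2, an activator of Hmox1 transcription, fell by 0.86 at 3 d, with the call lost in 4 alternatives, 3 other scalings among them. Pgrmc1, a heme-binding membrane protein, fell by 0.95, with the call lost under those 3 scalings, and Alad of heme synthesis (-0.68) lost its call in 7 alternatives and with 6 of the 8 libraries left out in turn. Lcn2, a carrier of iron-binding siderophores stored in neutrophil granules, rose at 3 d (2.98 ± 0.81, adjusted p = 0.01) and at 14 d (3.06 ± 0.81, adjusted p = 0.0383), the latter lost in 2 alternatives and with 7 of the 8 libraries left out in turn (adjusted p up to 0.136). At 14 d Alas1, the first enzyme of heme synthesis, rose 2.26-fold (1.18 ± 0.20, adjusted p = 0.00183), Hfe fell by 0.70, with the call lost in 2 alternatives and with 2 of the 8 libraries left out in turn, and Hmox2, the constitutive heme oxygenase, fell by 0.60, with its call lost in 3 alternatives and with 3 libraries left out in turn.

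In macrophages 1 of 51 other genes was called at 3 d, where 1.27% of all genes tested were called. This was Abcg2, an exporter of porphyrins (log2 change 1.02 ± 0.24, edgeR adjusted p = 0.0455). The call was lost with a replicate block, in a fit of only the groups compared and with 6 of the 7 libraries left out in turn (adjusted p up to 0.266). At 14 d 13 of the 51 were higher and 18 lower, where 39.4% of all genes tested were called higher and 22.9% lower. The 13 and 18 turned to 17 and 9 under library size scaling, 16 and 13 under upper quartile scaling and 20 and 5 with TMM from high genes. Of all 20944 genes tested, 9786, 9392 and 10430 were then called higher and 1789, 2229 and 1235 lower. Ncoa4, which delivers ferritin for breakdown, fell to 0.28-fold at 14 d (-1.84 ± 0.24, adjusted p = 1.79e-05). Flvcr2, a member of the FLVCR transporter family, fell to 0.23-fold (-2.15 ± 0.24, adjusted p = 7.92e-06), and Trf fell by 1.16. Steap3, an endosomal ferrireductase, rose 1.79-fold (0.84 ± 0.24, adjusted p = 0.00533). Nfe2l2 fell by 1.11 and Iscu, a scaffold for iron-sulfur clusters, by 0.94, in both cases with the call lost when TMM factors came from high genes, and for Iscu also under library size scaling. Of the 8 genes of heme synthesis 4 were lower in 14 d macrophages and none higher, which became 1 and 1 under library size scaling. Of all genes tested 22.9% were called lower there. At 14 d 7 of the 8 were called for a more downward change in macrophages than in monocytes, as were 20% of all genes tested. Under library size, upper quartile and high gene scaling it was 2 of the 8. Of all 26623 genes tested, 1564, 1579 and 1031 were then called downward, in the same order.

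The gene whose 6 group means on the log2 scale, centred on their own mean, lay nearest to those of a gene of the list was found among 8548 genes, by the root mean square difference. This was H1f0 for Hmox1 (0.139 log2 units), Ctdsp2 for Ftl1 (0.0522), Spryd7 for Fth1 (0.103), Cnot9 for Blvrb (0.067) and Rab18 for Slc11a2 (0.0161). The nearest gene to Slc40a1 was Cdc20 (0.283) and to Tfrc Kif2a (0.109). For Slc11a1 and Hp, the genes with the widest differences between groups, the nearest were Pi16 (0.448) and Aif1 (0.492), so that no gene came as close to them.

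The values moved with the scaling of the libraries. The shift of each gene's log2 change from the main fit was taken, and its median over genes is given. At 3 d in monocytes it was 0.13 with DESeq2 size factors, 0.48 with library size alone, 0.39 with upper quartiles and 0.52 with TMM factors from genes above a mean log2 CPM of 5. At 14 d in macrophages it was 0.17, 0.44, 0.35 and 0.56. With TMM and only the genes above a mean log2 CPM of 1, the median shift of the genes kept was 0.33 at 3 d in monocytes and 0.32 at 14 d in macrophages. The median log2 change of all genes tested nonetheless went from 0.22 to -0.04 and from 0.18 to -0.02, as the genes tested differed. The share of called genes that were higher went from 71.8% to 80.6, 95.1, 93.2 and 95.7% in the first comparison, and from 63.3% to 71.5, 84.5, 80.8 and 89.4% in the second. In the difference at 14 d between cell types it went from 45.9% to 66.7, 81.4, 81.1 and 88.6%. Of 34 calls among the 10 genes over 9 comparisons, 22 were kept under every alternative and every library left out. Slc11a1 was kept in every comparison that called it.

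**Figure D5:**
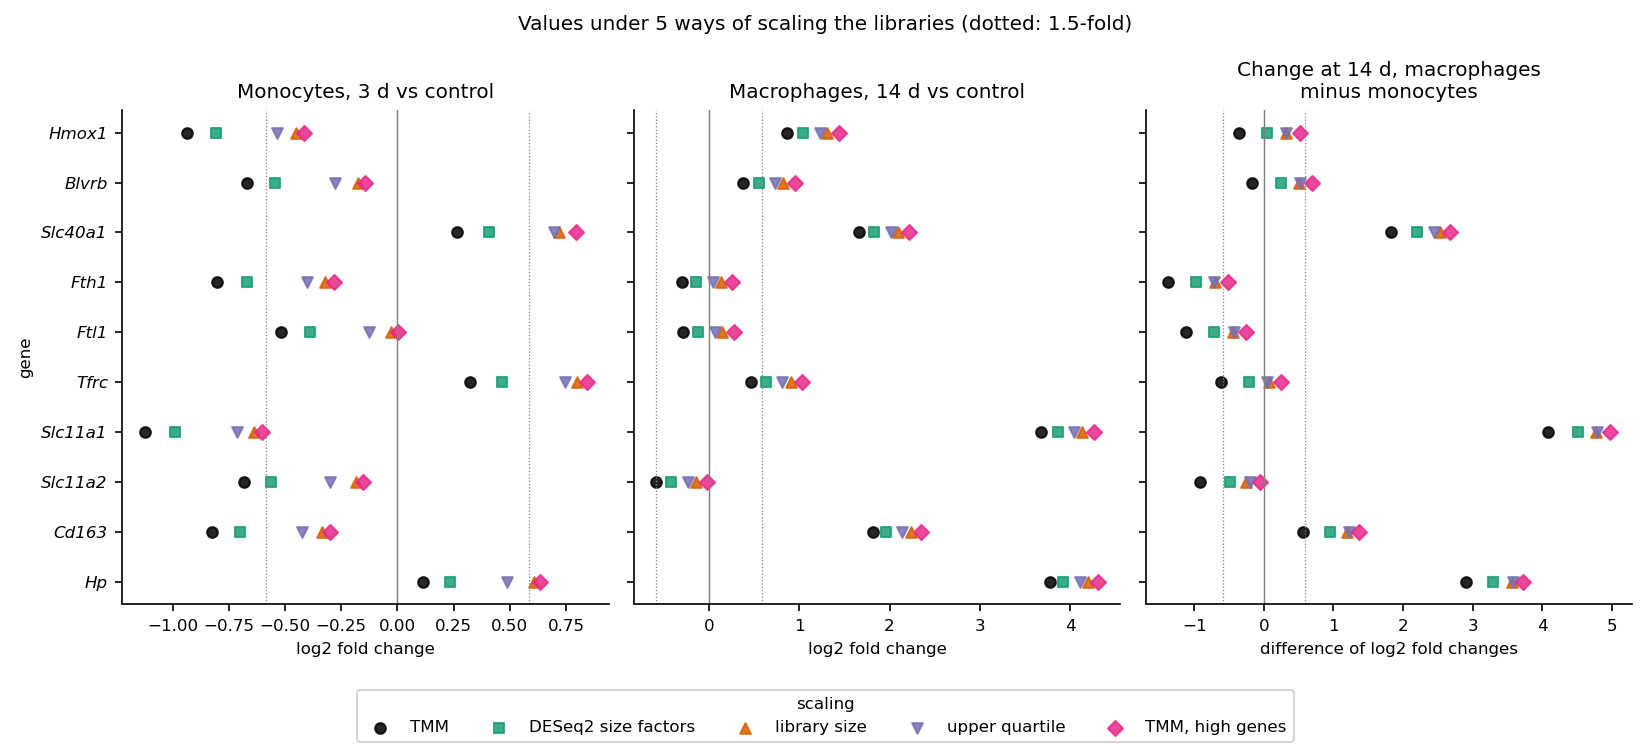
Log2 fold changes of the 10 genes under 5 ways of scaling the libraries (left, monocytes at 3 d; middle, macrophages at 14 d; right, the difference between cell types at 14 d; dotted lines, 1.5-fold). In the left panel Slc11a1 alone stays left of the dotted line under all 5, and in the middle panel Slc11a1, Hp, Slc40a1 and Hmox1, all called, and Cd163, not called with TMM, stay outside them.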

How the data were processed

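The 10 genes and all gene and marker lists were chosen with earlier results of these data known. The deposited values are raw counts of reads per gene, not normalized by the authors, for 12 monocyte samples and 10 macrophage samples. The submitters' processing notes name STAR 2.7.2c and 2.7.3a, featureCounts 1.6.3, DESeq2 1.26.0 and 1.28.1 and GRCm38, and use of strand is not given in the sources used here. The kit was NEBNext Ultra after oligo(dT) enrichment. Groups follow the labels.

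Each cell type was fitted over its 3 groups in edgeR 4.0.16 (R 4.3.3, limma 3.58.1) with filterByExpr, TMM and robust quasi-likelihood tests, two-sided, over 22353 genes in monocytes and 20944 in macrophages. Cell types were compared, and changes tested for interaction, in 1 fit over 22 samples and 26623 genes. The procedure was tested on simulated data. Names, positions and exonic lengths came from GENCODE M21. Alternatives were DESeq2 1.42.0, 4 other scalings, other filters, fits without the third group, a block by replicate number, calls on the adjusted p alone, the longest transcript as length and leaving out each sample. All 10 genes are named. Of the other iron genes, the called gene with the largest rise and that with the largest fall per list and comparison with control are named, at a mean above 10 CPM, and per member the nearest gene in level over the groups, and some genes that this rule picks are not reported here. No library was a duplicate of another. Control samples of the 2 cell types with the same replicate number deviated together (correlations 0.142 to 0.239 over the 4 pairs), though no source says what a number marks. So did 14 d monocytes and control macrophages (0.101 to 0.187). These 2 groups were not compared directly, but both enter the difference of the change at 14 d between cell types. Between control and 14 d monocytes, which were compared, these correlations were 0.0892 to 0.521 (mean 0.28). The main fits did not pair samples, and the block by replicate number was an alternative only. Intervals cover 95%, and floors cover counting error only.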

Additional observations from a re-analysis of the deposited data

Results flagged for a closer look

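Each gene was examined for a library far from the rest of its group, by Dixon's ratio in the groups of 4, and for a change that differed between the cell types. Of 40 groups tested, 4 held such a library, where chance alone gives about 1 in 20. They were Slc40a1 in replicate 3 of 3 d monocytes (6.934 CPM against 1.123 to 1.463 in the others), Tfrc in replicate 4 of control monocytes (9.236 CPM against 4.516 to 4.841), Tfrc in replicate 1 of control macrophages (17.94 CPM against 14.42 to 14.87) and Cd163 in replicate 2 of control macrophages (1.216 CPM from 16 counts, against 2 counts in each of the others).

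The interaction test gave 6 differences between the cell types, macrophages minus monocytes on the log2 scale. They were 1.93 for Slc11a1 at 3 d and, at 14 d, 4.08 for Slc11a1, 2.91 for Hp, -0.92 for Slc11a2, -1.12 for Ftl1 and -1.38 for Fth1. At 14 d the mice also differed in sex from the controls, in both cell types.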

How the results depend on the processing

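Of the 34 calls, 12 were lost under at least 1 alternative or with 1 library left out. In 3 d monocytes the 6 calls, all lower, became 3 lower with DESeq2 and with its size factors in edgeR and 2 lower with the filter at a mean log2 CPM above 1. Over all genes, 2199 of 22345, 2059 of 22353 and 683 of 12055 were called lower there, against 3223 of 22353 in the main fit. There were 3 with library size scaling and with TMM from high genes (Slc11a1 lower, Tfrc and Hp higher) and 2 with upper quartile scaling (Slc11a1 lower, Tfrc higher). Among 22353 genes these scalings called 9743, 9871 and 9276 higher and 499, 439 and 681 lower, in that order. In 14 d macrophages the 4 calls became 7 with library size, upper quartile and high gene scaling, adding Blvrb, Tfrc and Cd163. Of all 20944 genes tested, 9786, 9392 and 10430 were then called higher, against 8258 in the main fit. In 14 d monocytes DESeq2 gave 4 in place of 2, from 3 d to 14 d high gene scaling gave 3 in place of 6, in 3 d macrophages DESeq2 gave 1 in place of 0, and between control cell types upper quartile scaling gave 8 in place of 5. Over all genes the monocyte calls were then 2648 in place of 1914 and 10016 in place of 10395. Those of 3 d macrophages were 763 in place of 267, and those between control cell types 12441 in place of 11791. The differences between cell types at 3 d were 2 with DESeq2 and with its size factors and 3 with no filter, in place of 1, and at 14 d 3 with library size scaling, upper quartile scaling and the filter above 1, in place of 5. Over all genes those at 3 d were 6571, 4913 and 4286 (of 31116 with no filter), in place of 4983. Those at 14 d were 8427, 8340 and 4688 (of 13319 with that filter), in place of 9822 of 26623. Blvrb reversed at 14 d between cell types, to 0.70 with TMM from high genes. The cause of these changes was not tested.

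Leaving out 1 library gave 3 to 6 calls in 3 d monocytes, 2 to 3 at 14 d, 5 to 6 between them, 0 to 1 in 3 d macrophages, 4 to 5 at 14 d, 5 to 6 between them, 5 to 8 between control cell types, 1 to 3 for the difference at 3 d and 4 to 6 at 14 d. The low of 3 came without replicate 1 of 3 d monocytes, the 1 without replicate 2 of 3 d macrophages and the 8 without replicate 4 of control monocytes. The difference at 3 d, 1, was 3 without replicate 1 of control monocytes or replicate 2 of 3 d macrophages, and 2 without replicate 4 of control monocytes, replicates 2 or 3 of control macrophages or replicate 3 of 3 d macrophages. With a replicate block the calls were 6, 2, 6, 0, 5, 5, 5, 1 and 5 in the same order, the added one being Slc11a2 in 14 d macrophages (-0.61), and Lcn2 at 14 d and Abcg2 at 3 d were lost. Over all genes the block gave 133 calls in place of 267 in 3 d macrophages.

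Other limits are the depth of 14 d macrophages, where Cd163 had as few as 2 counts, the sex of the 14 d mice, the use of strand for Ftl1 and Slc11a2, and groups of 3. With the longest transcript as length, 45 of 60 levels per kilobase moved by more than 1 SD.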
